A study of Mus musculus with 2 samples.

Results

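The peaks described here lie along the imprinted Snrpn, Ube3a and Atp10a locus of mouse chromosome 7, and were chosen by their called position: every cJUN peak whose listed nearest genes include Snrpn, Ube3a or Atp10a was taken. There were 32 such peaks among 2741 in all, and 164 on chromosome 7. cJUN, which binds DNA as part of the transcription factor AP-1, was mapped by chromatin immunoprecipitation and sequencing in 1 immunoprecipitate against 1 input library. Both came from whole intestines of C57BL/6 embryos, wild type in genotype and taken at E14.5, pooled from 1 litter of 8 and kept in transwell culture for 24 h. The immunoprecipitate was made with a rabbit polyclonal cJUN antibody, and the input, sheared DNA that met no antibody, shared the strain, genotype, age and culture. With 1 library per group no value has a replicate error and no difference was tested. The whole organ was used, so the cell type behind a peak cannot be told apart, and in an inbred strain neither can the parental allele. A peak list holds no expression values, so the tissue label was not checked against marker genes.

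In this domain the parental copies are used unequally. Snrpn, which encodes a core protein of the splicing machinery, is expressed from the paternal copy. Its transcription unit extends as a long noncoding RNA, Snhg14, through tandem arrays of small nucleolar RNA (snoRNA) genes, Snord116 and then Snord115, towards Ube3a. Ube3a encodes a ubiquitin ligase and is expressed mainly from the maternal copy in neurons, where the antisense end of the noncoding RNA silences the paternal copy. Atp10a, a phospholipid flippase gene, is the next protein-coding gene beyond Ube3a. Loss of the paternal or maternal contribution in humans causes Prader-Willi or Angelman syndrome.

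The distances in the list are measured to gene starts. The sequence upstream of the Ube3a and Atp10a starts is shown here so that CG pairs and AP-1 motifs can be counted in it. Imprinting acts through methylation of CG pairs, but methylation was not measured, so the counts do not show whether these windows carry it. Each line gives the 250 bases before a start from the RefSeq promoter table (build GRCm38.p6, strand as given), 5′ to 3′, with every CG in capitals. The table has 4 Snrpn starts, and none of them was matched to the start behind the listed distances, so no Snrpn window is shown. The Ube3a and Atp10a windows were not matched by coordinate to the starts behind the listed distances either.
Ube3a, chr7:59228500-59228749, plus strand: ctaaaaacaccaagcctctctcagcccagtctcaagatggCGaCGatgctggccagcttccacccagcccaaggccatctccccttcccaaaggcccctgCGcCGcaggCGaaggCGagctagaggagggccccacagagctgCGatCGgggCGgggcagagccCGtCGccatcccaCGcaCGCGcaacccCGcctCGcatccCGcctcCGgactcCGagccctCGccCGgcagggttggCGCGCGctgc
Atp10a, chr7:58657952-58658201, plus strand: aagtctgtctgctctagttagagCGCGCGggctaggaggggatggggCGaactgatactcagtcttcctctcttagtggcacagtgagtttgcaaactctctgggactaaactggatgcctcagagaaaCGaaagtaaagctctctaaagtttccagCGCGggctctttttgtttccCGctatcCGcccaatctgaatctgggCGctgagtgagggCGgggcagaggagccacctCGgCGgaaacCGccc
The Ube3a window holds 24 CG pairs and the Atp10a window 14, where the median of all 32851 windows of this length is 6. The AP-1 motif TGANTCA, a palindrome that reads alike on both strands, occurs in neither window and in 6.75% of all windows. The related motif TGACGTCA is likewise in neither and in 1.55% of all. None of the 32 peaks was within 10 kb of a listed start, as 8.32% of all peaks were. The sequence under the peaks themselves was not analysed here.

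Most peaks listed at these genes lay in 1 stretch between Ube3a and Snrpn, far from both starts. Of the 32 peaks, 23 listed Snrpn with Ube3a, 4 listed Ube3a with Atp10a, 4 listed Atp10a without Snrpn or Ube3a, and 1 listed Snrpn alone. Ube3a was therefore listed at 27 peaks and Snrpn at 24, ranks 3 and 4 among 2963 listed genes, after Ezh2 and Pdia4 with 56 each. Atp10a was listed at 8. Every peak from the first member to the last, over 2175 kb, was a member. The next peak before them, 786 kb away at chromosome 7 from 64510754 to 64510879 (mm9), had a fold of 18.42 and listed Gabrg3, a GABA receptor subunit gene. Beyond the last member the next peak, 924 kb away, listed no gene and had a fold of 22.11.

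The sign of each distance could be read along the gene. The sign was checked in 608 genes with 2 or more peaks and 1 strand in the promoter table. In each, only 1 reading of the sign placed all peaks around 1 start, to within 1 bp. Genes where neither or both readings did so were left out. The reading that fitted matched the strand in 603 (99.2%), with a positive distance downstream of the start and a negative one upstream. The starts obtained in this way on mm9 were 65913571 for Atp10a and 66484121 for Ube3a, both on the plus strand, and 67285105 for Snrpn on the minus strand. Ube3a and Snrpn thus point towards each other over 801 kb. In the gene order of GRCm38.p6 this interval holds no other protein-coding gene and 206 snoRNA genes, of which 134 lie on the Ube3a side of the noncoding RNA gene Ipw and 72 on the Snrpn side. The 18 with a Snord116 name are all on the Snrpn side of Ipw. Where the arrays begin and end on mm9 was not analysed here, so no peak was assigned to a snoRNA gene.

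**Figure D1:**
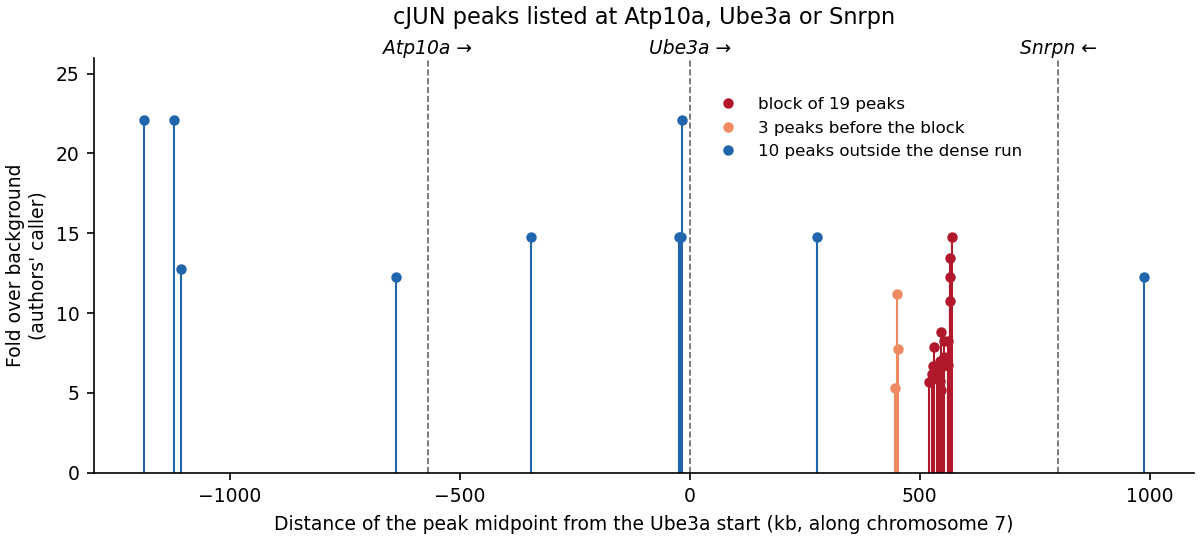
Fold over background (vertical axis) of the 32 peaks by distance of the peak midpoint from the Ube3a start in kb along chromosome 7 (horizontal axis). Dashed lines mark the gene starts with their direction of transcription. The 19-peak block (dark red) and the 3 peaks before it (orange) lie between the Ube3a and Snrpn starts, and the 10 other peaks (blue) have folds of 12.24 to 22.11.

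Of the 24 peaks listed at Snrpn, 23 were downstream of its start and 1 upstream. The upstream peak at chromosome 7 from 67471012 to 67471164 was the nearest, at 186 kb. Its fold was 12.24 and its score 51.9. Scores are 10 times the −log10 p that the authors' peak caller gave, and folds are likewise the caller's. The nearest downstream peak was 230 kb away and the farthest 525 kb. No peak therefore fell in the stretch of 186 kb on the upstream side or 230 kb on the downstream side of the Snrpn start.

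Ube3a had the nearest peaks of the 3 genes, a group of 3 upstream of its start. They lay at chromosome 7 from 66460355 to 66460506, from 66464168 to 66464331 and from 66466050 to 66466199, which is 23.7, 19.9 and 18 kb from the start. Their folds were 14.74, 14.74 and 22.11 and their scores 57.96, 65.91 and 58.39. The peaks were 151, 163 and 149 bp long, with midpoints 3.82 and 1.88 kb apart. Another upstream peak, between Atp10a and Ube3a at 66139282 to 66139427, was 345 kb from Ube3a and 226 kb from Atp10a. Its fold was 14.74 and its score 59.25. Downstream of Ube3a the first peak, at 66759773 to 66759916, lay at 276 kb and had fold 14.74 and score 59.7, and the other 22 began at 446 kb.

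Atp10a had 4 peaks upstream and 4 downstream of its start, and the 4 downstream ones were those also listed upstream of Ube3a. The nearest was 69.3 kb upstream, at 65844231 to 65844379, and had fold 12.24 and score 52.73. Another 3 lay 536 to 617 kb upstream, at 65296624 to 65296817, 65361906 to 65362052 and 65377679 to 65377814, with folds of 22.11, 22.11 and 12.79 and scores of 70.0, 69.88 and 57.02.

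The 10 peaks outside the dense stretch were alike in length. They were 135 to 193 bp long, with a median of 148.5 bp, where all peaks had a median of 149 bp. Their folds ran from 12.24 to 22.11 with a median of 14.74, against 16.75 for all peaks. Their scores ran from 51.9 to 70.0 with a median of 58.82, against 61.3. Their folds fell on a few repeated values. Among all 32 members 5 had exactly 14.74 and 3 exactly 22.11, values shared by 438 (16%) and 279 (10.2%) of all 2741 peaks, and the nearest upstream peaks of Snrpn and Atp10a both had 12.24, a value of 18 peaks in all.

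The remaining 22 peaks formed a dense run, defined as 5 or more peaks with no more than 100 kb between neighbouring midpoints, at chromosome 7 from 66930199 to 67054876. It spanned 124.7 kb, of which the peaks covered 8266 bp (6.63%). It lay 446 to 571 kb downstream of the Ube3a start and 230 to 355 kb downstream of the Snrpn start. Of all peaks, 7.84% were in such a run. The run held every member with a fold under 10 and every member of at least 250 bp. Folds under 10 were found at 17 of the 32 members, where 12.1% of all peaks had one, and a length of at least 250 bp at 15, against 6.24% of all peaks. Scores reached 100 or more at 3 members, against 4.63% of all peaks. These values come from the same immunoprecipitate and input that gave the members, so nothing is read from the counts. Chromosome 7 as a whole had 23 peaks with a fold under 10, 16 of at least 250 bp and 5 with a score of at least 100.

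The dense run fell into 2 pieces, separated by a gap of 68.6 kb between neighbouring midpoints. The smaller, on the Ube3a side, had 3 peaks within 5.889 kb. They lay at 66930199 to 66930491, 66934086 to 66934484 and 66935816 to 66936088, with folds of 5.33, 11.22 and 7.78, scores of 56.49, 76.92 and 63.55 and lengths of 292, 398 and 272 bp. The middle peak of these had both the highest fold and the highest score of the 3.

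The larger piece, a block of 19 peaks at 67004241 to 67054876, spanned 50.63 kb, and its peaks covered 14.4% of it. It held the highest score and the longest peak of chromosome 7, both at 67009366 to 67010147, a peak of 781 bp scoring 110.93 at a fold of 6.18. Only 2 other members scored at least 100, one of 658 bp at 67034848 to 67035506 at 103.02 with fold 6.7, and one of 562 bp at 67014444 to 67015006 at 102.34 with fold 7.88. Next were the peaks at 67020447 to 67020892, scoring 94.62 at fold 5.87, and at 67012022 to 67012449, scoring 89.84 at fold 6.68. All 5 were over 400 bp long and had folds below 8.

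In order from the Ube3a side to the Snrpn side, the first peak of the block, at 67004241 to 67004883, was 642 bp long, its fold 5.7 and its score 65.05. After the 4 peaks that follow it, already given, came a peak of 649 bp at 67024633 to 67025282, its fold 6.44 and its score 65.56. The next 4, between 67027126 and 67029777, were 270, 560, 522 and 235 bp long and had folds of 5.78, 6.99, 8.79 and 5.17, with scores of 58.15, 77.33, 84.42 and 58.97. Past the peak of 658 bp, a peak of 352 bp at 67035856 had fold 8.27 and score 77.3, and one of 269 bp at 67037232 had 7.28 and 53.71. A pair at 67044915 to 67045110 and 67045117 to 67045261, only 7 bp apart, had folds of 8.23 and 6.75 and the lowest scores of the block, 52.8 and 51.29. The last 4, at 67049226, 67049408, 67050164 and 67054725, had folds of 10.73, 12.27, 13.48 and 14.74. They were the only peaks of the block with a fold over 10, were 114, 109, 219 and 151 bp long, and scored 63.25, 58.12, 68.27 and 57.96.

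By rank, the peaks of the block tended to be shorter and to have higher folds towards Snrpn, with exceptions among neighbours. Spearman's rho across the 19 peaks was −0.805 between position and length, 0.753 between position and fold and −0.609 between position and score. Length went with score, at 0.768, and against fold, at −0.526. Across all 2741 peaks the rho was 0.13 between length and score and −0.152 between length and fold. These coefficients describe neighbouring peaks from the same libraries at the same depth, which are not independent.

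**Figure D2:**
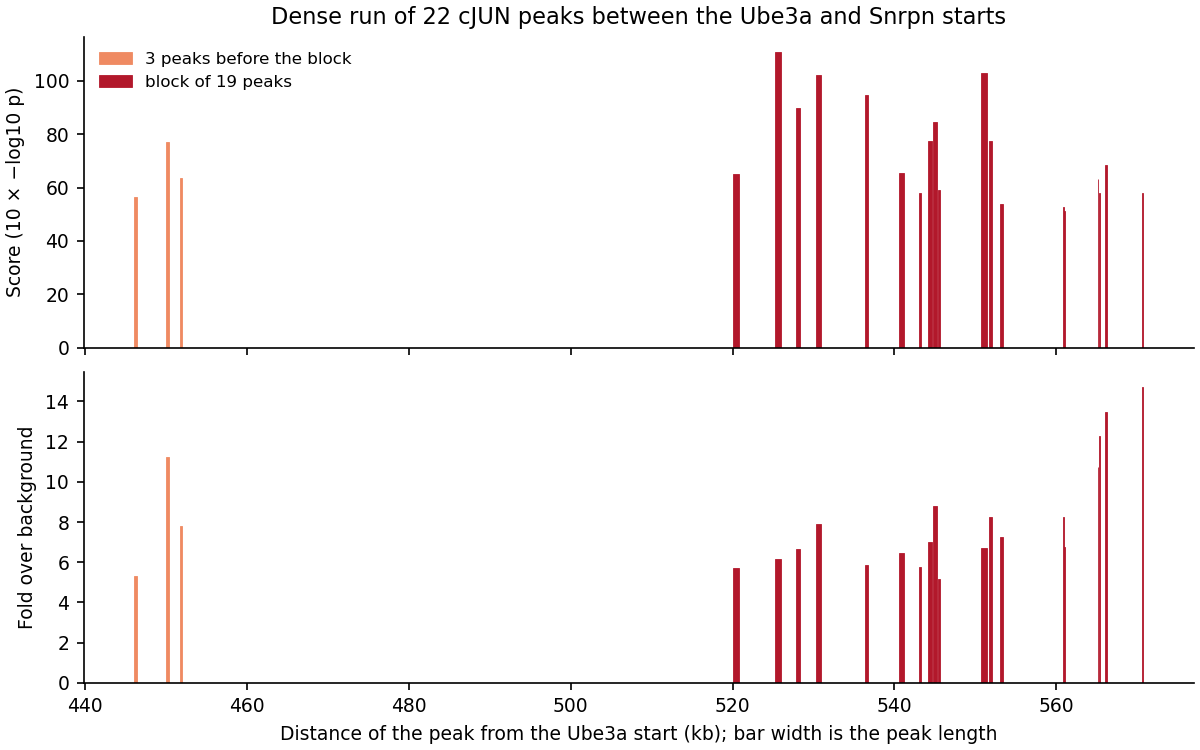
Score (upper panel) and fold over background (lower panel) of the 22 peaks of the dense run, by distance from the Ube3a start in kb, with bar width equal to peak length. The 3 wide peaks with scores over 100 have folds of 6.18 to 7.88, and the 4 narrow peaks on the Snrpn side rise from 10.73 to 14.74 in fold.

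The peaks of the block were close together but not evenly spaced. The 18 gaps between neighbouring midpoints ranged from 176.5 to 7646 bp, with a median of 2391 bp and quartiles of 822 and 4467 bp. Of these gaps, 6 were under 1 kb, 5 were 1 to 3 kb and 7 were 3 to 8 kb. The coefficient of variation of the gaps, their SD over their mean, was 0.823, where an even grid would give 0. Near-equal gaps occurred locally. The gaps either side of the peak at 67012022 were 2479 and 2489.5 bp between midpoints, but 2057 and 2811 bp between summits. Counting peaks with edges less than 1 kb apart as 1 left 11 gaps of 1838 to 7721.5 bp, with a median of 4716 bp and a coefficient of variation of 0.416. Such merging removes the shortest gaps by rule, so the higher median and lower coefficient are not read as more even spacing. Over the whole dense run the median gap was 2479 bp and the coefficient of variation 2.45, where the 1 gap of 68.6 kb set the higher value.

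**Figure D3:**
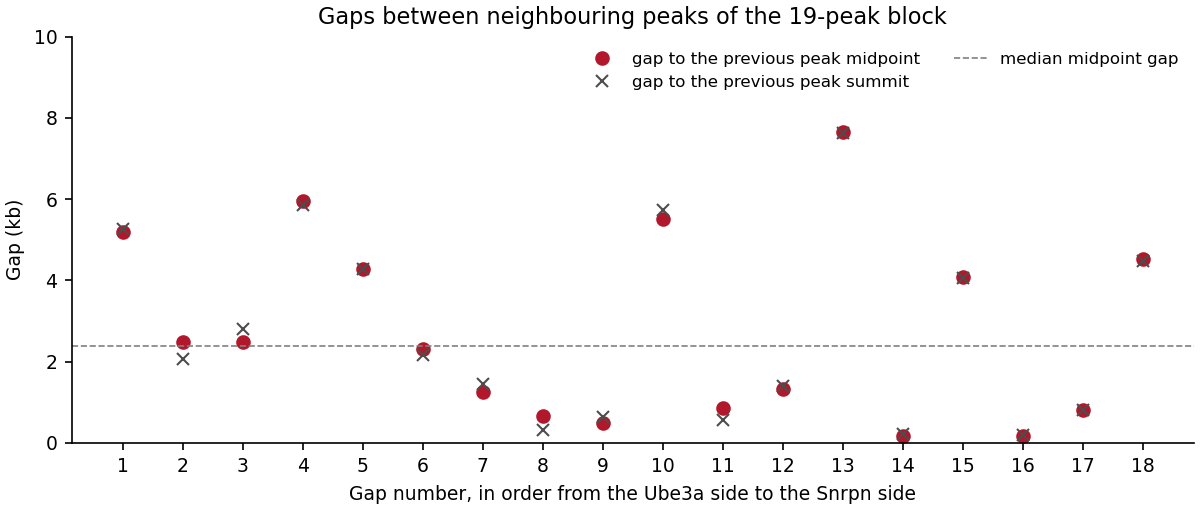
Gaps in kb between neighbouring peaks of the 19-peak block, in order from the Ube3a side to the Snrpn side, measured between midpoints (circles) and between summits (crosses). The dashed line is the median midpoint gap of 2391 bp, and the gaps spread from 176.5 to 7646 bp around it.

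There were 4 other dense runs of 10 or more peaks, and they differed among themselves in the same measures. Nearest in the coefficient of variation of the gaps was the run of 15 peaks at the predicted gene 4933400A11Rik on chromosome X, at 2.91, with a median fold of 8.47 and a median length of 318 bp. The 56 peaks at Ezh2, a Polycomb histone methyltransferase gene, and Pdia4, a disulfide isomerase gene, gave 3, with a median fold of 5.715 and a median length of 590 bp. The Snrpn and Ube3a run had a median fold of 7.135 and a median length of 322 bp. The run at Gas8 and Rhou on chromosome 8, of 15 peaks, gave 0.998, with a median fold of 12.05 and a median length of 146 bp. The 11 peaks at Srsx and Vmn2r121 on chromosome X gave 1.27, with 14.12 and 141 bp. Median scores were 80.41 at 4933400A11Rik, 82.91 at Ezh2, 65.31 at Snrpn, 55.42 at Gas8 and 59.58 at Srsx. With gaps of at most 20 kb, the largest piece of each run gave 1.05 at 4933400A11Rik, 0.589 at Ezh2, 0.823 at Snrpn, 0.691 at Gas8 and 0.697 at Srsx. These pieces held 14, 31, 19, 8 and 6 peaks in that order. At that limit Srsx and Gas8, nearly equal, were nearest to Snrpn in this value, so the order of likeness turned with the limit. No test of a difference between runs was possible with 1 list of peaks.

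**Figure D4:**
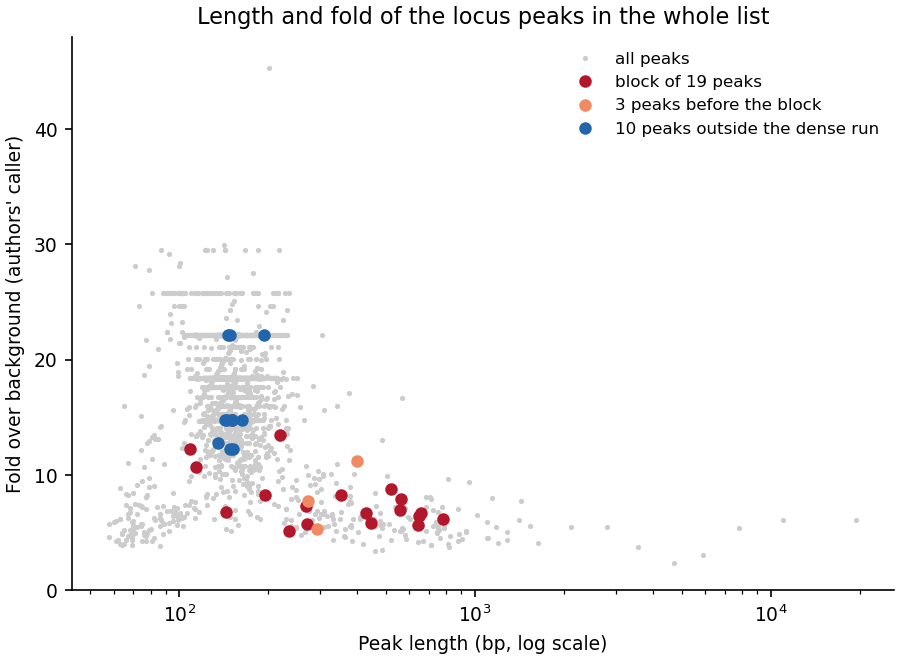
Peak length in bp (horizontal log axis) against fold over background (vertical axis) for all 2741 peaks (grey) and the 32 peaks of the locus (coloured). The 10 peaks outside the dense run sit among the short peaks of 135 to 193 bp, and most peaks of the run sit at longer lengths with folds under 10.

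Beyond the 3 genes, the wider domain was listed in part. The list gave 7 of its 13 protein-coding genes, and 4 of 10 (40%) without Snrpn, Ube3a and Atp10a, where the share over all 21900 protein-coding genes was 12.5%. Among them were Gabrg3, with its nearest peak at 132 kb, Oca2, a melanosomal transporter gene, at 162 kb, and Herc2, a ubiquitin ligase gene, at 27.9 kb. The last 2 shared that peak, at 63333357 to 63333490, whose fold was 14.74 and score 62.02. The paternally expressed genes Ndn, Magel2, Mkrn3 and Peg12, on the far side of Snrpn, were not listed, nor was Gabra5. Snurf was not listed by that name, and neither were Ipw, Snord64, Snord107, Snord115 and Snord116.

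Imprinted genes elsewhere had 1 or 2 peaks each where they were listed. Of 47 protein-coding genes in that list 10 (21.3%) were listed, at 10 peaks in all, where the share over all protein-coding genes was 12.5%. Taking only the nearest gene of each peak left 5 of the 47, so nothing is read from the share. Neighbours shared peaks, Dlk1 with Begain at 178 and 221 kb, and Rtl1 with Dio3 at 303 and 376 kb. The 2 nearest were Ppp1r9a, a neuronal phosphatase-targeting subunit gene, with a peak 20.8 kb downstream of its start at a fold of 4.06, and Calcr, the calcitonin receptor gene, at 26.9 kb and 18.42. Zim1 at 68.1 kb and Ins2, an insulin gene, at 97 kb had folds of 12.42 and 18.42. The farthest was Htr2a, a serotonin receptor gene, at 575 kb, and Sfmbt2, a Polycomb-group gene, had a peak 324 kb away with the highest fold, 45.25. Lengths of these 10 peaks were 63 to 201 bp. No imprinted gene of that list was listed at more than 2 peaks. Snrpn and Ube3a had 24 and 27, of which 23 peaks listed both. Those listings also chose the members, so nothing is read from the difference.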

How the data were processed

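The authors deposited 1 table of peaks, made from the immunoprecipitate and the input. The submitters' processing notes name Bowtie 1.1.0, MACS 1.4 and the build mm9. The peak threshold, the read filters, how duplicates and reads with several alignments were handled, and how genes were assigned to peaks are not given in the sources used here. Per the file headers, the fold is a fold enrichment, and a score of 10 corresponds to a −log10 p-value of 1. The headers do not state what the enrichment is taken against, and the figures label it fold over background. Library totals were not used here, so depth is unknown and no interval is given. Positions on mm9 are printed as deposited, and whether they count from 0 or 1 is not stated.

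Some results on genes listed beside the 3 named ones are not reported here. The members and gene lists were chosen with earlier results of these data known. Gaps run from midpoint to midpoint. Genes named are Snrpn, Ube3a and Atp10a, genes listed beside them, listed genes of the domain and imprinted lists, and the genes listed most often at other dense runs of at least 10 peaks. Names and gene order came from the RefSeq table of GRCm38.p6, which matched 2870 of 2963 listed names, and its coordinates were not set against mm9. Spacing functions were tested on simulated data. Python 3.11.15, pandas 2.3.3, numpy 2.4.6, scipy 1.17.1 and matplotlib 3.10.9 were used.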

Additional observations from a re-analysis of the deposited data

How the results depend on the processing

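No paired analysis was possible because there is 1 library per group. Requiring a score of at least 60 left 17 of the 32 peaks and 14 of the 22 in the dense run, with a median score of 76.92 and a median length of 427 bp. A score of at least 100 left 3 peaks and 0 in a run, with a median fold of 6.7, a median score of 103 and a median length of 658 bp. A fold of at least 10 left 15 peaks and 0 in a run, with a median length of 149 bp. The lower counts and the higher median scores follow from the thresholds themselves, and the cause of the other shifts was not tested. Limiting gaps to 20 kb gave a coefficient of variation of 0.8233, since the gap of 68.6 kb is then left out. With no run left, the gap values at a score of at least 100 and a fold of at least 10 could not be computed. Alternatives for the 2 gene lists were chosen after seeing the data. The listed genes of the domain fell from 7 to 2 where scores had to reach 100. The listed imprinted genes elsewhere numbered 10, and 5 where scores had to reach 60, 2 where they had to reach 100 and 5 by the nearest gene only. The other 20 values computed stayed within 1.5 times the count or coefficient, or within the 95% binomial interval of the median. That interval treats neighbouring peaks and gaps as independent, which they are not, so staying within it does not show a stable value. The median gap of the dense run stayed within it but went from 2479 bp to 3544 bp at scores of at least 60. It was 4502 bp with peaks less than 1 kb apart counted as 1, a rule that itself removes the shortest gaps.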
